A study of Homo sapiens with 14 samples.

Results

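The comparison covers 8 of the 14 RNA-seq libraries of the series: 4 libraries of the FGF2 early line against 4 of the FL early line, both derived from MOLM14. MOLM14 is an established human acute myeloid leukaemia cell line whose growth is driven by a mutated FLT3 receptor. The libraries were chosen by their labels alone. FGF2 early replicates 1 to 4 came from flasks numbered 5, 6, 7 and 8, and FL early replicates 1 to 4 from flasks 10, 11, 12 and 9. Both lines are labelled as early gilteritinib resistant. Gilteritinib is a kinase inhibitor that blocks FLT3 and AXL. Both lines were grown in medium with serum, with 10 ng/mL of FGF2 for one line and 10 ng/mL of FL, the ligand of FLT3, for the other. Each of the 8 flasks was then in 100 nM gilteritinib for 48 hours. For reference, the series holds 3 libraries of parental MOLM14 cells with no drug and no ligand. It also holds 1 library each of parental cells after 48 hours of 100 nM gilteritinib alone, with FGF2 or with FL. Line and ligand go together in the 2 early groups, so what belongs to the ligand in the medium and what belongs to the history of the line cannot be told apart. The labels do not say whether the flasks of a line were derived separately. The spread behind each p-value is that between libraries within the FGF2 early, FL early and parental groups, and it may be technical.

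Fibroblast growth factor 2 (FGF2) binds FGF receptors, of which FGFR1 is the main one on myeloid cells, and signals through the adaptor FRS2 and the RAS, RAF, MEK and ERK kinases. FLT3 ligand (FL) binds FLT3, a receptor of early haematopoietic cells, which signals through the same RAS-ERK cascade and, in its mutated form, through STAT5. Active ERK induces immediate early genes such as EGR1 and FOS within minutes, and in the longer term the feedback genes of the DUSP and Sprouty families. The granule genes described further on mark the promyelocyte stage of neutrophil development, when the serine proteases and myeloperoxidase of the primary granules are made.

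Expression is given as CPM, counts scaled to a common depth, and a log2 fold change is FGF2 early minus FL early ± its standard error, from a quasi-likelihood test in edgeR with Benjamini-Hochberg adjustment over all 15249 genes tested. The test gives no standard error itself. It was derived as the size of the log2 fold change over the square root of the F statistic, and is approximate for genes near 0 CPM. A gene is called at an adjusted p under 0.05. Of these genes, 825 (5.41%) were higher in FGF2 early and 1529 (10.0%) lower. With a change of at least 2-fold, 78 (0.512%) were higher and 711 (4.66%) lower. In 1231 genes (8.07%) all 4 FGF2 early libraries lay above all 4 FL early libraries, and in 1474 (9.67%) all lay below. Of the called genes, 35% were higher in FGF2 early, and with scaling to total counts alone this share was 51.7%, with 1368 genes higher and 1280 lower. The early libraries held between 27295941 and 33075041 counts, with 10.8% to 13.0% of the counts in ribosomal protein genes and 4.26% to 5.31% in mitochondrial genes. The 14 markers listed for the identity of MOLM14 were all tested. Among them FLT3, CD33 and HOXA9 did not pass the test between the lines, 1 was higher and 6 were lower in FGF2 early. The lower ones include SPI1 and are among the granule, receptor, monocyte and transcription factor genes below. Summed over the 14, levels did not overlap between the lines, at 1230 to 1270 CPM in FGF2 early, 1740 to 2570 CPM in FL early and 1290 to 1300 CPM in parental cells. The sums are weighted to the granule genes MPO and LYZ, which are among the 14 and far higher in FL early. They do not describe the other markers. Summed over 9 lymphoid markers, levels were 91.9 to 104 CPM in FGF2 early, 75.7 to 117 CPM in FL early and 94.2 to 101 CPM in parental cells. Over 6 stromal and epithelial markers the sums were 22.3 to 28.3, 21.0 to 39.1 and 14.9 to 16.0 CPM in the same groups.

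The FL early flasks were less alike than the FGF2 early flasks, and FL early replicate 4 stood apart. On the first principal component of the 8 libraries, which held 49.9% of the variance, FGF2 early libraries lay between -42.6 and -37.9. FL early replicates 1, 2 and 3 lay at 39.3, 60.8 and 59.3, and FL early replicate 4 lay at 2.76. FL early replicate 1 was separated from the rest on the second component (15.8%), at 58.5. The median SD of log2 CPM over the 4 libraries was 0.0954 in FGF2 early and 0.149 in FL early, and 70 and 408 of 9798 genes had an SD over 0.5. To place each library, it was left out, the genes that differed between the lines without it were found, and its level was set on a scale from the mean of the other line (0) to the mean of the rest of its own line (1). The scale is linear in CPM, so for genes that differ many-fold a library of the line with the low level lies near 1 even where it varies. FL early replicate 4 had a median position of 0.228 over 129 genes called lower in FGF2 early without it by at least 2 on the log2 scale, with at least 8 CPM in one line, with quartiles of 0.145 and 0.349. It was under 0.5 for 83.7% of those genes. Its median position over the 70 genes called higher by at least 1 on the log2 scale was 0.301. The other FL early libraries had medians of 0.841, 1.46 and 1.36 for lower genes. On a log2(CPM + 0.5) scale, added after seeing the data, the median of FL early replicate 4 was 0.494 for lower genes, with 52.7% of them under 0.5, and 0.190 for higher genes. On that scale the other FL early libraries had medians of 1.02, 1.27 and 1.23 for lower genes, and the FGF2 early libraries between 0.92 and 1.02. No cause of this position was tested. Without FL early replicate 4 the test called 1587 genes (10.5%) higher and 2170 (14.3%) lower, 203 (1.34%) and 913 (6.04%) of them by at least 2-fold. Leaving out replicate 1, 3 or 4 of FGF2 early or replicate 2 or 3 of FL early left 475, 399, 414, 450 or 428 genes higher. Leaving out replicate 3 or 4 of FGF2 early or replicate 2 of FL early left 1016, 967 or 994 lower, and leaving out replicate 4 of FGF2 early or replicate 3 of FL early left 50 or 51 at least 2-fold higher. Without replicate 2 of FGF2 early or replicate 1 of FL early, 605 and 818 genes were higher. Without replicate 1 or 2 of FGF2 early or replicate 1 or 3 of FL early, 1103, 1125, 1600 and 1026 were lower. List counts below that leave out a library belong beside these all-gene counts. 

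**Figure D1:**
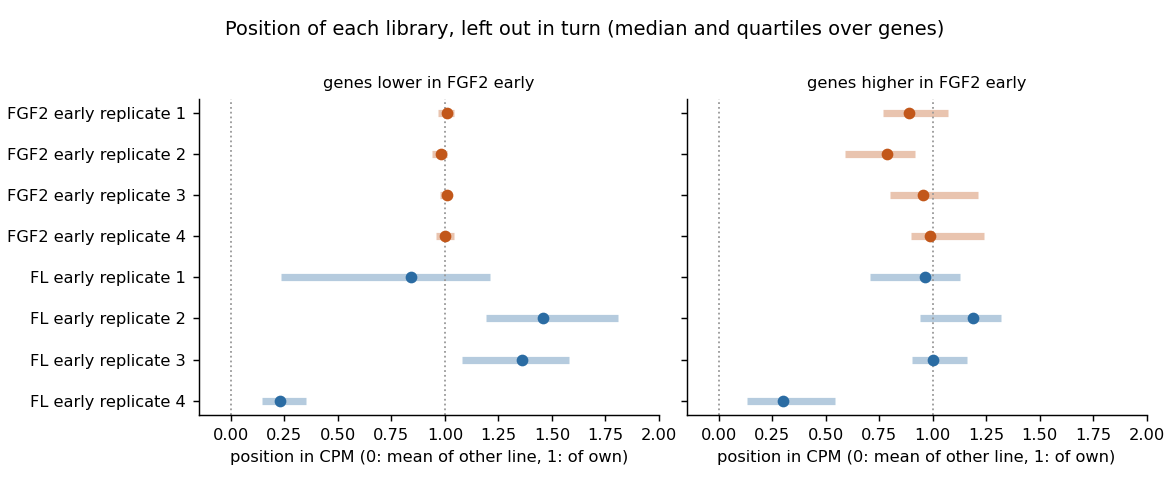
Position of each library when it is left out, on a scale from the mean of the other line (0) to the mean of its own other libraries (1). The scale is linear in CPM, points are medians and bars are quartiles over the genes called without that library, and FL early replicate 4 lies at 0.228 for genes lower in FGF2 early and at 0.301 for genes higher.

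Of the ERK immediate early genes, 11 of 28 tested were higher in the FGF2 early flasks and 1 was lower, against 5.41% and 10.0% of all genes, and the median log2 fold change was 0.154, against 0.000798 over all genes. The remaining 16 did not pass the test, and 11 of the 28 had a fold change below 0. Leaving out 1 library in turn left 8 to 10 members higher, and the lower count was 0 without replicate 1, 2, 3 or 4 of FGF2 early or replicate 2 or 3 of FL early, 3 without replicate 1 or 4 of FL early. Feedback inhibitors of the cascade gave 3 higher and 1 lower of 13, and 3 were higher on leaving out any 1 library. Their lower count was 0 without replicate 1, 2 or 3 of FGF2 early or replicate 2 or 3 of FL early, 2 without replicate 1 or 4 of FL early. EGR1, a zinc finger transcription factor that is among the fastest genes to follow ERK, had the smallest adjusted p of these lists. EGR1 was at 96.0, 91.8, 105 and 109 CPM in FGF2 early replicates 1 to 4 and at 21.2, 24.6, 17.8 and 13.4 CPM in FL early replicates 1 to 4. The FGF2 early libraries lay above every FL early library, and the parental libraries, at 134 to 155 CPM, above both. The difference was a log2 fold change of 2.38 ± 0.15 (adjusted p = 1.54e-05), and 2.25 without FL early replicate 4, which had the lowest level of the 8.

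The promoters of EGR1 and EGR2 hold a CArG box, the site of serum response factor, which couples ERK activity to immediate early genes. They are shown because both hold the same 10 letters of it, and that of DUSP1 because it holds a full cyclic AMP response element. All are from RefSeq on GRCh38.p14, 300 bases each, ending 50 bases after the start of the gene, and capitals mark the motif on either strand.
EGR1 promoter, chr5:138465229-138465528, plus strand: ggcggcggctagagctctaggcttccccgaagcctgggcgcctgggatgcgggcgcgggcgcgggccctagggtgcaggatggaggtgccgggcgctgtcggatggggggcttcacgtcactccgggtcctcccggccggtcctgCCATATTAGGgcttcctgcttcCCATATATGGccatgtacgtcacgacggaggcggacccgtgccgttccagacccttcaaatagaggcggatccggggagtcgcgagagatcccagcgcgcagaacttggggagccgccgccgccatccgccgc
EGR2 promoter, chr10:62816317-62816616, minus strand: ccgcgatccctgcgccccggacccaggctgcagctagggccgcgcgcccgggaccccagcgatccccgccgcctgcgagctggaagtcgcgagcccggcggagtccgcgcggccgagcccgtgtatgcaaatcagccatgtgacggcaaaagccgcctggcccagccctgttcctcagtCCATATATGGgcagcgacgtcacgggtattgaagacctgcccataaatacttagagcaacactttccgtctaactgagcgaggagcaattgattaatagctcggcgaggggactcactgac
DUSP1 promoter, chr5:172771146-172771445, minus strand: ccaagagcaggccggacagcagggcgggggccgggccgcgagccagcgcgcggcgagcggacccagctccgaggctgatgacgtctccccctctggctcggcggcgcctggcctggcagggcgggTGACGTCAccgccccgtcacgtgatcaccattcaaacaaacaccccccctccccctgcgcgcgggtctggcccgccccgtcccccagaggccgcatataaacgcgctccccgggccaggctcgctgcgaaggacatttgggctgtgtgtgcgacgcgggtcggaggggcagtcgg
In EGR1 the CArG boxes begin 105 and 83 bases before the start, and in EGR2 the box begins 71 bases before the start of 1 of its 3 listed promoters. The element TGACGTCA of DUSP1 begins 125 bases before the start. Promoter sequences were found for 11 of the 14 called higher members of the 2 ERK lists. Of these 11, 2 held a CArG box and 1 the cyclic AMP response element, while 1.29% and 1.85% of all 35116 promoters did. Genes were counted with a match in any listed promoter, and the shares are of single promoters, so the units differ. A match describes letters in a window and is not a measured site.

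FOSB and FOS, which encode partners of JUN in the AP-1 factor, followed EGR1. FOSB was at 33.5, 36.0, 46.9 and 27.4 CPM in the FGF2 early flasks and at 5.71, 10.1, 8.09 and 3.44 CPM in the FL early flasks (log2 fold change 2.39 ± 0.28, adjusted p = 0.000529). The groups did not overlap, and the parental libraries lay at 26.4 to 33.2 CPM, overlapping the low end of the FGF2 early range. For FOS the levels were 214, 214, 249 and 228 CPM against 127, 99.1, 98.3 and 59.5 CPM (log2 fold change 1.24 ± 0.17, adjusted p = 0.00142). All FGF2 early libraries were above the parental range of 74.2 to 77.6 CPM, and FL early replicates 1 to 3 were above it too. Both genes were again lowest in FL early replicate 4. EGR2, a second EGR factor, was low in all libraries, at 1.62 to 1.68 CPM in FGF2 early and 0.102 to 0.696 CPM in FL early (log2 fold change 1.88 ± 0.38, adjusted p = 0.00863). IER2, an immediate early response gene, was at 209.7 to 260.4 CPM against 109 to 149 CPM (log2 fold change 0.82 ± 0.12, adjusted p = 0.0019). MCL1, the anti-apoptotic BCL2 relative with a short-lived transcript, was at 314, 337, 359.7 and 341 CPM against 193, 269, 246 and 203 CPM (log2 fold change 0.57 ± 0.09, adjusted p = 0.00321). Its groups did not overlap, and the parental range of 302 to 317 CPM met the low end of the FGF2 early range. The other called members are given to complete the list, after their values were seen: EGR3 (log2 fold change 1.39 ± 0.30), HBEGF (0.61 ± 0.13), NR4A2 (0.81 ± 0.22), JUNB (0.64 ± 0.18) and ZFP36 (0.32 ± 0.10) were higher, and PLAUR, the urokinase receptor, was lower (-0.66 ± 0.19; not passing with limma-voom, adjusted p = 0.0568). Calls were lost on leaving out single libraries for 4 of them, JUNB without replicate 1, 2 or 4 of FGF2 early or replicate 2 or 3 of FL early (adjusted p = 0.0565 to 0.0932), NR4A2 without replicate 2 or 3 of FGF2 early or replicate 2 or 3 of FL early (adjusted p = 0.0774 to 0.081), ZFP36 without replicate 1, 3 or 4 of FGF2 early or replicate 1, 2 or 4 of FL early (adjusted p = 0.0692 to 0.129) and PLAUR without replicate 1, 2, 3 or 4 of FGF2 early or replicate 2 or 3 of FL early (adjusted p = 0.063 to 0.102).

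Among the feedback genes, DUSP1, DUSP2 and DUSP10 were higher in FGF2 early, while DUSP6 and SPRY4 did not pass the test. DUSP1, which dephosphorylates p38, JNK and ERK, was at 27.2, 32.6, 39.6 and 33.2 CPM in FGF2 early and 11.9, 13.2, 13.3 and 8.28 CPM in FL early (log2 fold change 1.5 ± 0.15, adjusted p = 0.000228). Its parental level of 17.1 to 18.2 CPM lay between the lines. DUSP2, a nuclear phosphatase of the same family, was at 44.1, 40.3, 44.7 and 53.3 CPM against 23.7, 15.3, 15.9 and 20.9 CPM (log2 fold change 1.27 ± 0.14, adjusted p = 0.000407). Neither gene overlapped between the groups. DUSP10, whose product prefers p38 and JNK, was at 16.6 to 18.0 CPM against 10.9 to 13.6 CPM (log2 fold change 0.51 ± 0.08, adjusted p = 0.00319), and both lines were below the parental 22.2 to 24.4 CPM. DUSP6, the cytoplasmic phosphatase specific for ERK, was at 106, 93.6, 100.1 and 98.4 CPM against 50.1, 109, 101 and 97.9 CPM. Only FL early replicate 1 was low, the other 7 libraries lay together, and the difference was 0.15 ± 0.18 (adjusted p = 0.614). SPRY4, a Sprouty inhibitor of receptor signalling to RAS, was at 11.5, 10.2, 8.11 and 9.58 CPM against 11.1, 18.6, 17.3 and 11.5 CPM (log2 fold change -0.57 ± 0.18, adjusted p = 0.0548). It passed the test as lower in FGF2 early without replicate 1 or 4 of FL early (adjusted p = 0.021 to 0.025). TRIB1, a pseudokinase that targets C/EBP-alpha for degradation and sits in the list of FOXO targets, was at 52.4, 61.0, 77.4 and 63.6 CPM against 25.4, 34.0, 30.1 and 30.7 CPM (log2 fold change 1.08 ± 0.12, adjusted p = 0.000375). For the 12 ERK immediate early genes called without FL early replicate 4 at a log2 difference of at least 0.5, the median position of that library was 0.918, with a range of -0.264 to 1.42. It was at or past 1 for 5 of them and under 0.5 for 2. The 12 include genes lower in FGF2 early, such as PLAUR, for which it was at 0.146. Among those higher in FGF2 early its lowest position was 0.66, for NR4A2.

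**Figure D2:**
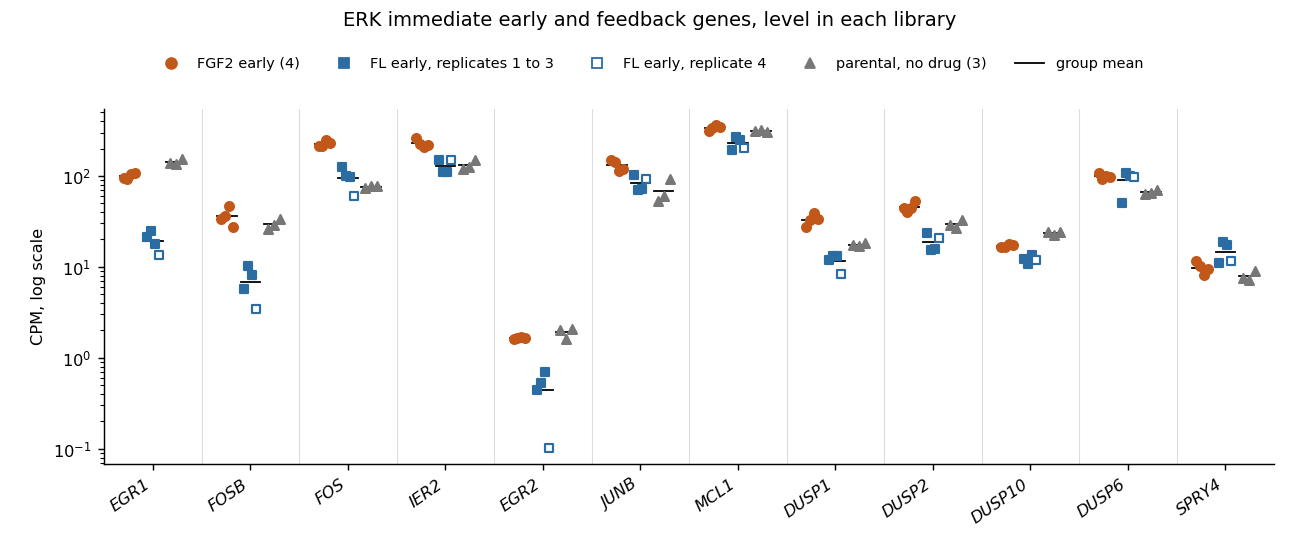
Level in CPM (log axis) of immediate early and feedback genes in each library of FGF2 early, FL early and untreated parental cells. Points are libraries and lines are group means. EGR1 is 91.8 to 109 CPM in FGF2 early and 13.4 to 24.6 CPM in FL early, and DUSP6 and SPRY4 overlap between the lines.

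FGFR1 and FLT3 did not pass the test between the lines. The FGF receptors FGFR2 and FGFR3 were lower in FGF2 early. FGFR1 was at 199, 190.3, 231 and 187 CPM in FGF2 early and 189, 221, 234 and 189.6 CPM in FL early. The groups overlapped throughout, and the log2 fold change was -0.05 ± 0.09 (adjusted p = 0.749). FLT3 was at 405, 399, 475 and 455 CPM against 419.8, 324, 329 and 392 CPM (log2 fold change 0.24 ± 0.09, adjusted p = 0.0854), and FL early replicate 1 lay inside the FGF2 early range. FLT3 passed the test without replicate 1 of FL early (adjusted p = 0.0252). FGFR3, a second FGF receptor, was at 3.45, 3.73, 2.89 and 7.34 CPM against 34.6, 19.6, 20.2 and 14.4 CPM (log2 fold change -2.34 ± 0.32, adjusted p = 0.00138), with parental libraries at 15.5 to 19.9 CPM inside the FL early range. FGFR2 was at 0.203 to 0.505 CPM against 0.375 to 3.26 CPM (log2 fold change -2.68 ± 0.56, adjusted p = 0.00977). It did not pass with limma-voom (adjusted p = 0.0579). FL early replicate 4 lay inside the FGF2 early range of FGFR2 and the other FL early flasks above it. AXL, a receptor kinase that gilteritinib also inhibits, was at 29.5, 25.9, 28.2 and 28.7 CPM against 20.2, 8.86, 8.62 and 19.4 CPM (log2 fold change 0.98 ± 0.26, adjusted p = 0.0255). FL early replicates 1 and 4 were between 19.4 and 20.2 CPM. Replicates 2 and 3 were just above the parental 6.88 to 8.28 CPM. The AXL call was lost without replicate 1, 3 or 4 of FGF2 early or replicate 2 or 3 of FL early. The adjusted p was then 0.0521 to 0.0602. GAS6, the ligand of AXL, was lower in FGF2 early, at 57.1, 35.1, 32.1 and 44.6 CPM against 158, 59.6, 64.7 and 69.1 CPM (log2 fold change -1.05 ± 0.31, adjusted p = 0.0394; not passing with limma-voom, adjusted p = 0.0508), and lost its call without replicate 2, 3 or 4 of FGF2 early (adjusted p = 0.0845 to 0.104).

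Receptors for the myeloid cytokines were lower in FGF2 early where they differed with all 8 libraries. Of 26 cytokine receptor genes tested, none was higher and 5 were lower, against 5.41% and 10.0% of all genes. Without FL early replicate 4 the counts were 2 and 10, against 10.5% and 14.3% of all genes. The lower count was 3 without replicate 3 of FGF2 early or replicate 2 of FL early. IL3RA, the alpha chain of the IL-3 receptor, was at 23.2, 22.2, 23.7 and 20.8 CPM against 77.4, 60.0, 58.0 and 27.4 CPM (log2 fold change -1.31 ± 0.23, adjusted p = 0.00496). In FL early replicate 4 it was close to the FGF2 early libraries, with the other FL early libraries within or above the parental 52.2 to 58.1 CPM; without it the log2 fold change was -1.53. CSF3R, the G-CSF receptor, was at 91.3, 97.5, 95.4 and 89.4 CPM against 238, 164, 139.7 and 115 CPM (log2 fold change -0.81 ± 0.17, adjusted p = 0.0104), and FGF2 early was close to the parental 86.1 to 89.7 CPM. CSF2RA, the alpha chain of the GM-CSF receptor, was at 12.2 to 15.9 CPM against 15.2 to 28.4 CPM (log2 fold change -0.73 ± 0.18, adjusted p = 0.0179), with FL early replicate 4 inside the FGF2 early range, and it lost its call without replicate 3 of FGF2 early or replicate 2 of FL early (adjusted p = 0.0502 to 0.0554). IL18R1, for a chain of the IL-18 receptor, was at 1.54, 1.08, 0.825 and 0.925 CPM against 2.71, 4.46, 5.17 and 2.45 CPM (log2 fold change -1.76 ± 0.32, adjusted p = 0.00541), and its groups did not overlap. Downstream of these receptors, 1 of 26 genes of the RAS-ERK cascade was higher and 2 lower, against 5.41% and 10.0% of all genes. The higher count was 0 without replicate 1, 3 or 4 of FGF2 early or replicate 2 or 3 of FL early, 2 without replicate 4 of FL early. The lower count was 1 without replicate 3 or 4 of FGF2 early or replicate 3 of FL early, and 3 without replicate 1 or 4 of FL early. RRAS2, for a RAS-related GTPase, had counts in 1 of the 4 FGF2 early libraries, at 0.0290 CPM, and was at 1.48, 0.0629, 0.729 and 0.102 CPM in FL early and 1.94 to 2.37 CPM in parental cells (adjusted p = 0.0123). All 8 early libraries were below the parental range. CNKSR2, a scaffold of that cascade that was not in the list, was at 18.6, 14.4, 14.6 and 14.9 CPM against 7.12, 4.59, 8.38 and 7.16 CPM (log2 fold change 1.2 ± 0.19, adjusted p = 0.00266), and its groups did not overlap.

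STAT5 targets moved in both directions, with 3 of 16 higher and 4 lower, against 5.41% and 10.0% of all genes. PIM1, a kinase gene that follows STAT5 and FLT3 activity, was at 2.35, 1.85, 1.34 and 1.79 CPM in FGF2 early and 8.46, 6.47, 5.47 and 2.56 CPM in FL early (log2 fold change -1.64 ± 0.30, adjusted p = 0.00545). Both lines were far below the parental 47.3 to 49.6 CPM. CCND2 and CCND3, the D-type cyclins of this list, went opposite ways, at 87.7 to 95.3 against 44.1 to 76.3 CPM (log2 fold change 0.53 ± 0.13, adjusted p = 0.0203) and 199 to 207 against 220.3 to 331 CPM (log2 fold change -0.44 ± 0.11, adjusted p = 0.0186). CCND2 lost its call without replicate 1 or 2 of FGF2 early or replicate 2 of FL early (adjusted p = 0.0506 to 0.0558) and CCND3 without replicate 3 or 4 of FGF2 early or replicate 2 of FL early (adjusted p = 0.052 to 0.0555). The feedback genes CISH and SOCS2 did not pass the test, at 9.93 to 12.7 against 10.6 to 13.4 CPM (log2 fold change -0.03 ± 0.10, adjusted p = 0.883) and 182 to 186 against 140.1 to 224 CPM (log2 fold change 0.09 ± 0.13, adjusted p = 0.663). CISH was below the parental 41.5 to 47.9 CPM in all 8 early libraries. On leaving out single libraries, the higher count of this list was 0 without replicate 2 of FGF2 early or replicate 2 of FL early, 1 without replicate 1 or 3 of FGF2 early.

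Neutrophil primary granule genes were lower in FGF2 early as a list. Of 14 tested, 13 were lower and none higher, against 10.0% and 5.41% of all genes. The median log2 fold change was -1.14, and the lower count was 11 to 12 on leaving out 1 library. For each of the 13, all 4 FL early libraries lay above all 3 parental libraries. The FGF2 early libraries all lay above the parental range for 4 of the 13 and all below it for 4. Matching shares over all called genes were not counted, so whether these counts are particular to the list was not tested. MPO, which encodes myeloperoxidase, was at 43.4, 46.0, 32.2 and 34.2 CPM in FGF2 early and 171, 512, 578 and 699 CPM in FL early (log2 fold change -3.65 ± 0.36, adjusted p = 0.000243). The FGF2 early libraries were below the parental 60.4 to 78.9 CPM, all FL early libraries above it, and FL early replicate 1 was the lowest of its group. MPO was highest of the 8 in FL early replicate 4. AZU1, for azurocidin, was at 1079.9, 1096, 828 and 844 CPM against 2131, 1738, 1954 and 2529 CPM (log2 fold change -1.12 ± 0.17, adjusted p = 0.00215), and here both lines were above the parental 374 to 593 CPM. PRTN3, for proteinase 3, was at 681, 839.9, 552 and 414 CPM against 1827, 1233, 940.3 and 1666 CPM (log2 fold change -1.19 ± 0.25, adjusted p = 0.0113), also with both lines above the parental 132 to 208 CPM. Its groups did not overlap.

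AZU1 and PRTN3 lie close together on chromosome 19. Their promoters are shown because both hold the same 8 letters of the C/EBP core, in capitals, the site of the factors that drive granule genes. Sequences are from RefSeq on GRCh38.p14.
PRTN3 promoter, chr19:840749-841048, plus strand: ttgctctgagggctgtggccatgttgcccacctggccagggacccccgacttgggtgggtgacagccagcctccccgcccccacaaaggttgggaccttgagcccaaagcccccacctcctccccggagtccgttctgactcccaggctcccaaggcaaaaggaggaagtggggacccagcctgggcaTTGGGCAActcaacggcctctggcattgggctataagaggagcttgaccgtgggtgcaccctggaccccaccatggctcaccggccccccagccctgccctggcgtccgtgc
AZU1 promoter, chr19:827587-827886, plus strand: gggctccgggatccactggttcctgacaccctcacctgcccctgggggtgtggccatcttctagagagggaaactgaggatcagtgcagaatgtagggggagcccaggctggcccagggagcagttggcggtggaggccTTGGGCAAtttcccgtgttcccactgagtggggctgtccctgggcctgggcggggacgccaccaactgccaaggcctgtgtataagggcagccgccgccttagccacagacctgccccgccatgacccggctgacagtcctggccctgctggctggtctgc
The match begins 62 bases before the start in PRTN3 and 111 bases before it in AZU1. The core was searched as TTNNGNAA on both strands. It was found in 5 of the 7 called granule genes with a promoter sequence (AZU1, CTSG, PRTN3, RNASE2 and RNASE3) and in 36.8% of all 35116 promoters, so the letters are common. The first count is of genes with a match in any listed promoter and the share is of single promoters.

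PRSS57, a serine protease of the same granules, was at 131, 158, 128 and 115 CPM against 469, 327, 385 and 325 CPM (log2 fold change -1.5 ± 0.20, adjusted p = 0.00129). ELANE, for neutrophil elastase, was at 760.1, 952, 692 and 600.2 CPM against 2062, 1044, 905 and 1438 CPM (log2 fold change -0.86 ± 0.26, adjusted p = 0.0471). FGF2 early replicate 2 overlapped the FL early range, and the call was lost without replicate 1, 3 or 4 of FGF2 early or replicate 1, 2 or 4 of FL early (adjusted p = 0.0565 to 0.123). CTSG, for cathepsin G, was at 266, 312, 322 and 249 CPM against 314, 358, 418 and 579 CPM (log2 fold change -0.54 ± 0.16, adjusted p = 0.0438), overlapped likewise and lost its call without replicate 1, 2, 3 or 4 of FGF2 early or replicate 2 or 3 of FL early (adjusted p = 0.0526 to 0.116). LYZ, for lysozyme, was at 135, 103, 93.6 and 66.2 CPM against 319.9, 809, 905 and 398 CPM (log2 fold change -2.61 ± 0.33, adjusted p = 0.00094), with the parental libraries at 242 to 264 CPM in between. RNASE2 and RNASE3, ribonucleases of eosinophil and neutrophil granules which are close copies of each other, so that the counting may have split their reads, were at 257 to 304 against 387 to 497 CPM (log2 fold change -0.66 ± 0.08, adjusted p = 0.000738) and 24.5 to 31.3 against 40.8 to 60.1 CPM (log2 fold change -0.90 ± 0.12, adjusted p = 0.00103). DEFA4, for a defensin, was at 0 to 0.101 CPM in FGF2 early, with no count in 2 of the 4 libraries, and at 0.779 to 3.61 CPM in FL early. The remaining called members, named to complete the list after their values were seen, were SRGN (log2 fold change -1.16 ± 0.19), SERPINB1 (-0.78 ± 0.13) and BPI (-2.0 ± 0.44). CFD was the 1 member not called (log2 fold change -1.03 ± 0.55, adjusted p = 0.232), and its FL early levels of 787, 124, 117 and 554 CPM split into replicates 1 and 4 above and replicates 2 and 3 below the FGF2 early libraries. MS4A3, a membrane protein of granulocyte precursors outside the list, was at 13.1, 17.5, 13.2 and 9.26 CPM against 76.2, 103, 65.3 and 61.2 CPM (log2 fold change -2.53 ± 0.20, adjusted p = 6.18e-05).

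The eosinophil granule genes EPX and PRG2 separated the FL early flasks from one another. Of 11 eosinophil and basophil genes tested, 6 were lower in FGF2 early and none higher, against 10.0% and 5.41% of all genes. Without FL early replicate 4, 4 were lower, against 14.3% of all genes. RNASE2 and RNASE3, counted above with the primary granule genes, were among the 6. GATA1, the transcription factor that eosinophils share with red cells, had no count in any FGF2 early library and was at 0, 1.04, 0.497 and 0.341 CPM in FL early (adjusted p = 0.0208; not passing with limma-voom, adjusted p = 0.0559). EPX, for eosinophil peroxidase, was at 2.29, 5.92, 4.95 and 2.42 CPM in FGF2 early and 1.48, 503, 113 and 114 CPM in FL early (log2 fold change -5.57 ± 1.16, adjusted p = 0.0105). PRG2, for the major basic protein, was at 8.46, 17.2, 19.3 and 3.82 CPM against 14.5, 1296, 313 and 260.5 CPM (log2 fold change -5.28 ± 1.07, adjusted p = 0.00912). In both genes FL early replicate 1 lay within or below the FGF2 early levels, while replicates 2, 3 and 4 were above all of them, so the difference belonged to 3 of the 4 FL early flasks. With limma-voom neither gene passed the test (adjusted p = 0.318 for EPX and 0.105 for PRG2).

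**Figure D3:**
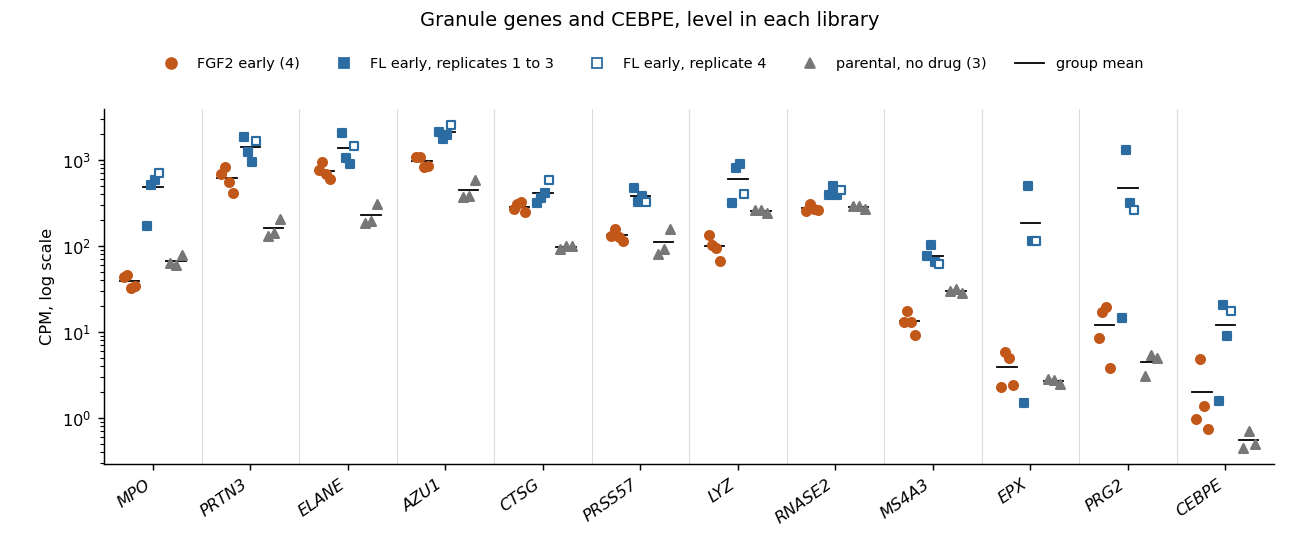
Level in CPM (log axis) of granule genes and CEBPE in each library of FGF2 early, FL early and untreated parental cells; lines are group means. MPO is 32.2 to 46.0 CPM in FGF2 early and 171 to 699 CPM in FL early, and for EPX and PRG2 1 FL early flask lies with the FGF2 early flasks.

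Transcription factors of the myeloid lineage were mostly on the same side as the granule genes. Of 26 tested, 8 were lower in FGF2 early and 1 higher, against 10.0% and 5.41% of all genes, with a median of -0.331. The lower count was 3 without replicate 4 of FGF2 early, 5 without replicate 3 of FGF2 early or replicate 2 or 3 of FL early, and 10 without FL early replicate 4. Over all genes, 967 of 15128 were lower without replicate 4 of FGF2 early, and 14.3% without FL early replicate 4. CEBPA, the master regulator of granulocyte commitment, did not pass the test, at 143, 105, 50.1 and 59.8 CPM against 325, 73.0, 78.5 and 252 CPM (log2 fold change -1.02 ± 0.52, adjusted p = 0.212). FL early replicates 1 and 4 were above and replicates 2 and 3 within the FGF2 early range, the same split as for CFD. CEBPE, which acts at the later granulocyte stages, was at 0.985, 4.81, 1.37 and 0.746 CPM against 1.56, 20.5, 8.95 and 17.6 CPM (log2 fold change -2.63 ± 0.74, adjusted p = 0.035; not passing with limma-voom, adjusted p = 0.0914), with FL early replicate 1 inside the FGF2 early range, and lost its call without replicate 1, 3 or 4 of FGF2 early or replicate 2 or 3 of FL early (adjusted p = 0.0537 to 0.0936). CEBPD was at 15.1, 13.9, 9.18 and 8.66 CPM against 35.6, 18.4, 20.0 and 24.8 CPM (log2 fold change -1.07 ± 0.23, adjusted p = 0.0105), with both lines above the parental 3.46 to 4.01 CPM. SPI1, for the myeloid and B cell factor PU.1, was at 108 to 129 CPM against 144 to 179 CPM (log2 fold change -0.43 ± 0.10, adjusted p = 0.0157) and lost its call without replicate 3 or 4 of FGF2 early (adjusted p = 0.0509 to 0.052). IRF5, a factor of monocytes and macrophages, was at 25.4, 23.7, 24.3 and 20.1 CPM against 38.0, 42.8, 47.7 and 28.9 CPM (log2 fold change -0.75 ± 0.14, adjusted p = 0.00558).

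Monocyte and macrophage genes gave 7 lower and none higher of 29, against 10.0% and 5.41% of all genes, with a median of -0.512. The lower count was 4 without replicate 3 or 4 of FGF2 early, 13 without replicate 4 of FL early. Without the latter, 14.3% of all genes were lower. CD14, the defining surface marker of monocytes, was near 0 in every early library, at 0 to 0.135 CPM in FGF2 early and 0.102 to 0.464 CPM in FL early (log2 fold change -2.03 ± 0.80, adjusted p = 0.107). FCGR1A, the high-affinity IgG receptor, was at 20.2, 26.3, 20.0 and 19.3 CPM against 42.1, 37.0, 36.1 and 27.9 CPM (log2 fold change -0.74 ± 0.13, adjusted p = 0.00438), and all early libraries were above the parental 14.5 to 16.2 CPM. VCAN, for the proteoglycan versican, was at 0.0580, 0.303, 0.103 and 0.0597 CPM against 0.111, 5.34, 7.65 and 1.12 CPM (log2 fold change -4.76 ± 1.04, adjusted p = 0.0126; not passing with limma-voom, adjusted p = 0.153). FL early replicate 1 lay inside the FGF2 early range, and FL early replicates 2 and 3 near the parental 5.81 to 8.45 CPM. LGALS3, for galectin-3, was at 8.67, 10.9, 8.73 and 5.58 CPM against 14.7, 29, 28.3 and 16.3 CPM (log2 fold change -1.39 ± 0.25, adjusted p = 0.00475). Outside the list, MNDA, a nuclear protein of myeloid cells, was at 1.30, 3.53, 2.85 and 1.55 CPM against 23.6, 67.2, 56.6 and 19.5 CPM (log2 fold change -4.19 ± 0.46, adjusted p = 0.000419), and MCEMP1, a membrane protein of mast cells and monocytes, at 9.13, 8.45, 5.98 and 5.28 CPM against 26.3, 57.6, 46.1 and 23.4 CPM (log2 fold change -2.41 ± 0.29, adjusted p = 0.00064). For MNDA the FGF2 early libraries lay below the parental 8.57 to 9.81 CPM and the FL early libraries above it.

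Several genes of other functions were far lower in the FGF2 early flasks than in parental cells, while FL early replicates 1 to 3 had levels closer to the parental ones. CD93, a receptor of stem cells and early myeloid cells, was at 2.26, 2.19, 2.03 and 1.70 CPM in FGF2 early and 83.5, 172, 160.4 and 14.5 CPM in FL early, with parental cells at 126 to 129 CPM (log2 fold change -5.72 ± 0.68, adjusted p = 0.000696). HSD17B12, an enzyme of very long chain fatty acid elongation, was at 1.19, 3.20, 1.99 and 1.16 CPM against 53, 48.6, 57.7 and 11.3 CPM, with parental cells at 52.3 to 54.7 CPM (log2 fold change -4.51 ± 0.50, adjusted p = 0.000438). ANKRD52, a regulatory subunit of protein phosphatase 6, was at 9.39, 9.35, 6.32 and 7.05 CPM against 86.8, 82.2, 91.6 and 25 CPM, with parental cells at 81.0 to 86.2 CPM (log2 fold change -3.15 ± 0.35, adjusted p = 0.000434). For these 3 genes FL early replicate 4 was well below the other FL early flasks, and every FL early library was above every FGF2 early library. TBC1D16, a RAB GTPase activating protein, was at 5.97, 3.70, 2.75 and 3.05 CPM against 28.6, 36.3, 42.8 and 10.4 CPM (log2 fold change -2.93 ± 0.39, adjusted p = 0.00129). ZMYND11, a reader of methylated histone H3.3, was at 3.54, 3.67, 1.75 and 7.17 CPM against 30.3, 32.1, 34.9 and 7.70 CPM (log2 fold change -2.69 ± 0.47, adjusted p = 0.0046). In ZMYND11 FL early replicate 4 was close to the highest FGF2 early library. Without FL early replicate 4 the log2 fold changes of these 5 genes were -6.08, -4.83, -3.43, -3.21 and -3.00.

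CA2, for carbonic anhydrase 2, showed another order. It was at 12.3, 10.4, 7.70 and 6.84 CPM in FGF2 early, 105, 118, 114 and 35.9 CPM in FL early and 2.87 to 4.16 CPM in parental cells, so both lines were above the parental level (log2 fold change -3.32 ± 0.35, adjusted p = 0.000322). CKAP4, a membrane protein of the endoplasmic reticulum, was at 2.87, 4.54, 1.55 and 3.19 CPM against 14.4, 85.5, 75.7 and 41.8 CPM, with parental cells at 29.9 to 31.5 CPM (log2 fold change -4.16 ± 0.51, adjusted p = 0.000783). The FL early flasks lay on both sides of the parental level for CKAP4, and the FGF2 early flasks all below it.

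Genes higher in FGF2 early outside the ERK lists included ATP9A, PLEKHA5, MEIS2 and SPIB. ATP9A, a lipid flippase of endosomes, was at 38.9, 44.2, 53.3 and 44.9 CPM in FGF2 early and 5.53, 4.97, 2.39 and 28.7 CPM in FL early (log2 fold change 2.13 ± 0.59, adjusted p = 0.0341). FL early replicates 1 to 3 were near the parental 3.30 to 4.45 CPM and replicate 4 stood well above them. Without that replicate the difference was larger (log2 fold change 3.41, adjusted p = 6.57e-06), while the call was lost without replicate 1, 2, 3 or 4 of FGF2 early or replicate 1, 2 or 3 of FL early (adjusted p = 0.0565 to 0.0921). PLEKHA5, a protein with a pleckstrin homology domain, was at 20.3, 22.2, 22.6 and 20.8 CPM against 5.23, 5.47, 3.84 and 15.2 CPM (log2 fold change 1.53 ± 0.34, adjusted p = 0.0132), and 2.15 without FL early replicate 4. MEIS2 and MEIS1, homeobox partners of the HOXA factors, were at 68.4, 88.5, 99.8 and 94.7 against 31.8, 28.1, 31.1 and 64.8 CPM (log2 fold change 1.17 ± 0.24, adjusted p = 0.00912) and 55.1, 51.7, 58.3 and 58.4 against 34.9, 36.6, 35.2 and 47.3 CPM (log2 fold change 0.54 ± 0.09, adjusted p = 0.00418). They were the 2 higher members of the 15 listed HOXA, MEIS and PBX genes, with 1 lower, against 5.41% and 10.0% of all genes. Without FL early replicate 4, 5 were higher and 3 lower, against 10.5% and 14.3% of all genes. None was lower on leaving out any other library but replicate 2 of FGF2 early. Both genes were highest in replicate 4 among the FL early flasks. SPIB, an ETS factor of B cells and plasmacytoid dendritic cells, was at 14.6, 12.3, 14.1 and 15.6 CPM against 5.16, 3.24, 4.84 and 9.74 CPM (log2 fold change 1.30 ± 0.26, adjusted p = 0.00774).

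**Figure D4:**
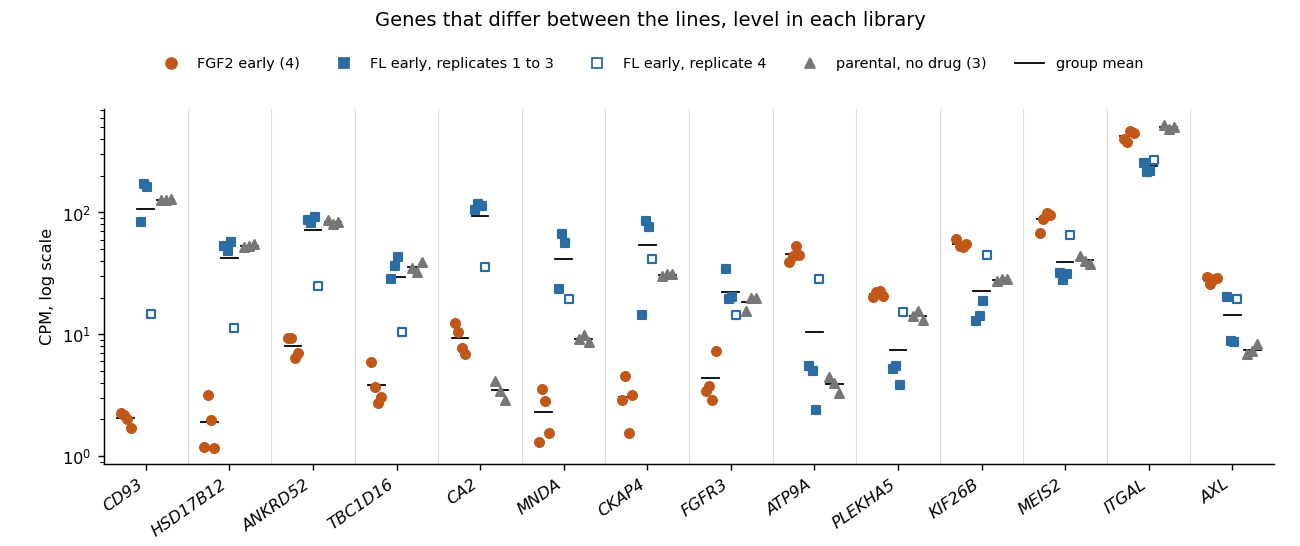
Level in CPM (log axis) of 14 genes that differ between the lines, in each library of FGF2 early, FL early and untreated parental cells; lines are group means. FL early replicate 4 (open squares) lies between the other FL early flasks and the FGF2 early flasks for CD93, HSD17B12, ANKRD52, ATP9A and PLEKHA5.

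Genes of the TGF-beta and BMP pathway were lower in FGF2 early where they differed. Of 23 tested, 10 were lower and none higher, against 10.0% and 5.41% of all genes, with a median of -0.426. The count was 4 without replicate 3 or 4 of FGF2 early or replicate 2 of FL early, 5 without replicate 3 of FL early, 6 without replicate 2 of FGF2 early or replicate 1 of FL early, and 12 without FL early replicate 4. In that last fit 14.3% of all genes were lower. ID1, an inhibitor of helix-loop-helix factors that BMP signals and STAT5 induce, was at 1.80, 1.75, 1.44 and 1.94 CPM against 7.27, 7.48, 6.56 and 4.50 CPM (log2 fold change -1.89 ± 0.19, adjusted p = 0.000228). Its FL early libraries lay within or below the parental 6.08 to 8.14 CPM and its FGF2 early libraries all below it. ID3, its relative, was at 0.336 to 1.13 CPM against 1.09 to 4.78 CPM (log2 fold change -2.09 ± 0.47, adjusted p = 0.0134), with FL early replicate 4 inside the FGF2 early range. BMPR1A, a BMP receptor, was at 3.10, 10.3, 6.39 and 3.05 CPM against 29.6, 31.0, 29.6 and 9.37 CPM (log2 fold change -2.13 ± 0.44, adjusted p = 0.00977), again with FL early replicate 4 inside the FGF2 early range. TGFB2, a TGF-beta ligand, was at 0.841 to 2.38 CPM against 3.75 to 4.78 CPM (log2 fold change -1.30 ± 0.29, adjusted p = 0.0136).

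Interferon-stimulated genes gave 8 higher and 1 lower of 41, against 5.41% and 10.0% of all genes, with a median of 0.247. The higher count was 3 without replicate 2 of FL early, 4 without replicate 1 or 4 of FGF2 early or replicate 1 or 3 of FL early, 5 without replicate 2 or 3 of FGF2 early, and 12 without FL early replicate 4. The lower count was 2 without replicate 4 of FL early, 4 without replicate 1 of FL early. Over all genes, 10.5% were higher and 14.3% lower without FL early replicate 4. PARP14, a mono-ADP-ribosyltransferase, was at 85.1, 75.6, 89.9 and 96.1 CPM against 51.7, 59.4, 51.7 and 72.0 CPM (log2 fold change 0.56 ± 0.11, adjusted p = 0.00621). OAS1, a sensor of double-stranded RNA, was at 11, 12.1, 9.14 and 12.3 CPM against 4.56, 3.33, 3.81 and 8.86 CPM (log2 fold change 1.12 ± 0.26, adjusted p = 0.0162), with FL early replicates 1 to 3 near the parental 3.23 to 3.68 CPM. SAMD9 was at 33.1 to 35.6 CPM against 25.3 to 28.8 CPM (log2 fold change 0.34 ± 0.06, adjusted p = 0.00587). IFITM1, an antiviral membrane protein, was the 1 lower member, at 0.137 to 0.303 CPM against 0.341 to 5.81 CPM (log2 fold change -3.32 ± 0.73, adjusted p = 0.0122; not passing with limma-voom, adjusted p = 0.0813).

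Of 8 class II MHC genes, 2 were higher and none lower, against 5.41% and 10.0% of all genes. Without FL early replicate 4, 1 was lower, against 14.3% of all genes. CIITA, which switches on class II genes, was at 17.3, 12.8, 13.1 and 12.4 CPM against 8.05, 9.56, 7.75 and 7.12 CPM (log2 fold change 0.77 ± 0.14, adjusted p = 0.00478), and both lines lay below the parental 20.6 to 26.1 CPM. CD74, the invariant chain, was at 168, 140.3, 132 and 131 CPM against 125, 109, 125 and 125 CPM without passing the test (log2 fold change 0.24 ± 0.08, adjusted p = 0.079), although the groups did not overlap. B2M, the light chain of class I molecules, was at 449 to 514 CPM against 524 to 813 CPM (log2 fold change -0.45 ± 0.11, adjusted p = 0.0211) and lost its call without replicate 1 or 4 of FGF2 early or replicate 2 or 3 of FL early (adjusted p = 0.0532 to 0.0638). Among chemokine receptors, CXCR4 was at 79.1, 67.9, 76.9 and 74.3 CPM against 85.3, 102, 107 and 75.2 CPM (log2 fold change -0.31 ± 0.10, adjusted p = 0.0553) and CCR2 at 11.8, 5.05, 4.54 and 4.69 CPM against 12.9, 10.9, 11.1 and 4.16 CPM (log2 fold change -0.58 ± 0.36, adjusted p = 0.315). CXCR4 passed the test without replicate 1 or 4 of FL early (adjusted p = 0.00507 to 0.0482), as lower in FGF2 early.

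Integrins and adhesion molecules differed in both directions, with 5 of 28 higher and 5 lower, against 5.41% and 10.0% of all genes. Without FL early replicate 4 the counts were 6 and 7, against 10.5% and 14.3% of all genes. ITGAL, the alpha chain of LFA-1, was at 400.1, 382, 466 and 451 CPM in FGF2 early and 256, 215, 220.3 and 270.2 CPM in FL early (log2 fold change 0.82 ± 0.09, adjusted p = 0.000249). The 2 lines did not overlap, and both were below the parental 483 to 519.9 CPM. ITGA4, the alpha chain of VLA-4, was at 172 to 188 CPM against 121 to 158 CPM (log2 fold change 0.43 ± 0.08, adjusted p = 0.0045), with both lines above the parental 104 to 107 CPM. ICAM1, the ligand of LFA-1, was at 43.4 to 53.6 CPM against 33.9 to 40.6 CPM (log2 fold change 0.37 ± 0.08, adjusted p = 0.0135). PECAM1, a homophilic adhesion molecule, was at 59.3, 66.2, 64.5 and 59.0 CPM against 112, 176, 173 and 98.9 CPM (log2 fold change -1.17 ± 0.17, adjusted p = 0.00153), and FGF2 early was close to the parental 56.0 to 58.7 CPM. CD9, a tetraspanin, was at 0.358 to 0.753 CPM against 1.02 to 3.08 CPM (log2 fold change -2.25 ± 0.38, adjusted p = 0.00348). The lower count of this list was 2 without replicate 1 or 4 of FGF2 early or replicate 2 of FL early, 3 without replicate 3 of FGF2 early.

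In the BCL2 family, MCL1 (above) and PMAIP1 were higher and 2 of 15 genes were lower, against 5.41% and 10.0% of all genes. The lower count was 1 without replicate 3 or 4 of FGF2 early or replicate 2 or 3 of FL early. Without FL early replicate 4, 3 were higher and 3 lower, against 10.5% and 14.3% of all genes. PMAIP1, for the BH3-only protein NOXA that binds MCL1, was at 16.6 to 19.6 CPM against 12.6 to 14.1 CPM (log2 fold change 0.45 ± 0.08, adjusted p = 0.00565). HRK, another BH3-only gene, was at 0.202 to 0.717 CPM against 2.76 to 4.84 CPM (log2 fold change -2.75 ± 0.33, adjusted p = 0.00058). BCL2 and BMF did not pass the test (log2 fold change 0.10 ± 0.07, adjusted p = 0.403 and log2 fold change -0.40 ± 0.30, adjusted p = 0.397). Of 24 p53 targets, 4 were higher and none lower, against 5.41% and 10.0% of all genes. The fold change was above 0 for 23 of the 24, against 7646 of 15249 over all genes, and the median log2 fold change was 0.208. Without FL early replicate 4, 10 were higher, against 10.5% of all genes. Leaving out replicate 1 or 2 of FGF2 early left 2, replicate 3 of FGF2 early or replicate 1 or 3 of FL early left 1, and replicate 4 of FGF2 early or replicate 2 of FL early left 0. CDKN1A, the p53 target that inhibits cyclin-dependent kinases, was at 306, 329, 284 and 289.8 CPM against 149.9, 325, 344 and 359.7 CPM (log2 fold change 0.04 ± 0.21, adjusted p = 0.929), with only FL early replicate 1 low.

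Of 41 genes of G1-S and DNA replication, 5 were higher and 3 lower, against 5.41% and 10.0% of all genes, and 34 of the 41 had a fold change above 0. Of 39 genes of G2-M and mitosis none was higher and 3 were lower. Without FL early replicate 4 these counts were 13 and 3, and 1 and 6, against 10.5% and 14.3% of all genes. The higher G1-S count was 0 without replicate 4 of FGF2 early, 1 without replicate 2 or 3 of FL early, 2 without replicate 3 of FGF2 early, 3 without replicate 1 of FGF2 early, 13 without replicate 4 of FL early. The lower G1-S count was 1 without replicate 1, 2, 3 or 4 of FGF2 early or replicate 2 or 3 of FL early, and the lower G2-M count was 1 without replicate 1, 2, 3 or 4 of FGF2 early or replicate 2 or 3 of FL early, 6 without replicate 4 of FL early, 9 without replicate 1 of FL early. CDK1, the mitotic kinase, was at 84.6, 96.8, 89.3 and 95.5 CPM against 99.6, 119.6, 122 and 99.6 CPM (log2 fold change -0.27 ± 0.08, adjusted p = 0.0458; not passing with limma-voom, adjusted p = 0.0527) and lost its call without replicate 1, 2, 3 or 4 of FGF2 early or replicate 2 or 3 of FL early (adjusted p = 0.0635 to 0.132). AURKB, the Aurora kinase of the chromosomal passenger complex, did not pass the test (log2 fold change 0.05 ± 0.09, adjusted p = 0.73). None of the 13 Aurora kinase and chromosomal passenger genes was called by edgeR, against 15.4% of all genes in either direction. Of the 13, 1 had an unadjusted p under 0.05, and DESeq2 called 0 higher and 0 lower. CDK6, the partner of the D-type cyclins, was at 469, 373, 462 and 399 CPM against 334, 284, 271 and 301 CPM (log2 fold change 0.52 ± 0.08, adjusted p = 0.00293). The CDK4 and CDK6 inhibitor CDKN2D was at 7.80 to 8.52 CPM against 10.6 to 16.2 CPM (log2 fold change -0.78 ± 0.12, adjusted p = 0.00272), CCNE1 at 7.87 to 10.9 CPM against 12.8 to 16.6 CPM (log2 fold change -0.60 ± 0.12, adjusted p = 0.0071) and CCNA1, a cyclin of germ cells and leukaemia cells, at 14.7, 16.1, 16.7 and 15.1 CPM against 49.1, 72.4, 72.4 and 17.7 CPM (log2 fold change -1.76 ± 0.34, adjusted p = 0.00718). For CCNA1 FL early replicate 4 lay close to the FGF2 early libraries.

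No gene of 24 in cholesterol synthesis was called by edgeR, against 15.4% of all genes in either direction. Of the 24, 2 had an unadjusted p under 0.05, and DESeq2 called 0 higher and 0 lower. Without FL early replicate 1, 5 were lower, against 1600 of 15130 over all genes. Without FL early replicate 4, 1 was higher and 1 lower, against 10.5% and 14.3% of all genes. Of 14 genes of fatty acid synthesis and desaturation, 1 was higher and 3 lower, against 5.41% and 10.0% of all genes. Without FL early replicate 4, 3 were higher and 4 lower, against 10.5% and 14.3% of all genes. Without FL early replicate 1, 2 were higher, against 818 of 15130 over all genes. FADS2, a desaturase of polyunsaturated fatty acids, was at 1.94, 1.35, 3.54 and 3.43 CPM against 4.60, 87.1, 119 and 24.1 CPM (log2 fold change -4.52 ± 0.83, adjusted p = 0.00588; not passing with limma-voom, adjusted p = 0.0972). FL early replicate 1 was near the FGF2 early libraries, replicates 2 and 3 were above the parental 63.2 to 67.2 CPM, and replicate 4 lay between. FADS1, the desaturase beside it in the pathway, was at 10.8, 6.60, 5.77 and 8.51 CPM against 9.09, 52.6, 67.8 and 22 CPM (log2 fold change -2.26 ± 0.50, adjusted p = 0.0129; not passing with limma-voom, adjusted p = 0.0594), with the same order of the FL early flasks. ME1, the malic enzyme that supplies NADPH, was at 13.5, 10.9, 10.3 and 11.5 CPM against 3.38, 3.99, 6.2 and 7.56 CPM (log2 fold change 1.13 ± 0.24, adjusted p = 0.00977). SCD, the stearoyl-CoA desaturase, was at 989, 894, 819 and 914 CPM against 327, 783, 866 and 1008 CPM (log2 fold change 0.28 ± 0.25, adjusted p = 0.499), with only FL early replicate 1 low. In glycolysis, 2 of 25 genes were higher and 3 lower, against 5.41% and 10.0% of all genes. The higher count was 0 without replicate 1 or 2 of FGF2 early or replicate 2 or 3 of FL early. It was 1 without replicate 4 of FGF2 early, 4 without replicate 1 of FL early and 5 without replicate 4 of FL early. In that last fit 10.5% of all genes were higher. The lower count was 1 without replicate 1, 2, 3 or 4 of FGF2 early or replicate 2 or 3 of FL early, 7 without replicate 1 of FL early. GPI, for glucose-6-phosphate isomerase, was at 326, 323, 329 and 302 CPM against 601, 806, 789 and 500.2 CPM (log2 fold change -1.07 ± 0.13, adjusted p = 0.000556), and FL early flasks lay on both sides of the parental 621 to 666 CPM. HK1, for hexokinase 1, was at 20.8, 16.5, 14.4 and 23.8 CPM against 26.1, 94.4, 80.8 and 21.9 CPM (log2 fold change -1.56 ± 0.42, adjusted p = 0.0296; not passing with limma-voom, adjusted p = 0.0793), high only in FL early replicates 2 and 3, and lost its call without replicate 1, 2, 3 or 4 of FGF2 early or replicate 2 or 3 of FL early (adjusted p = 0.056 to 0.0889). IRS2, an adaptor of the insulin receptor, was at 34.8, 39.2, 23.0 and 21.4 CPM against 97.5, 102, 96.2 and 73.4 CPM (log2 fold change -1.64 ± 0.19, adjusted p = 0.000529), and ATF5, a stress-induced leucine zipper factor, at 27.0, 27.2, 20.9 and 28.3 CPM against 66.0, 48.6, 69.8 and 77.5 CPM (log2 fold change -1.34 ± 0.14, adjusted p = 0.000304). For both genes FL early was above the parental ranges of 27.3 to 35 and 23.6 to 29.7 CPM and did not overlap FGF2 early.

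**Figure D5:**
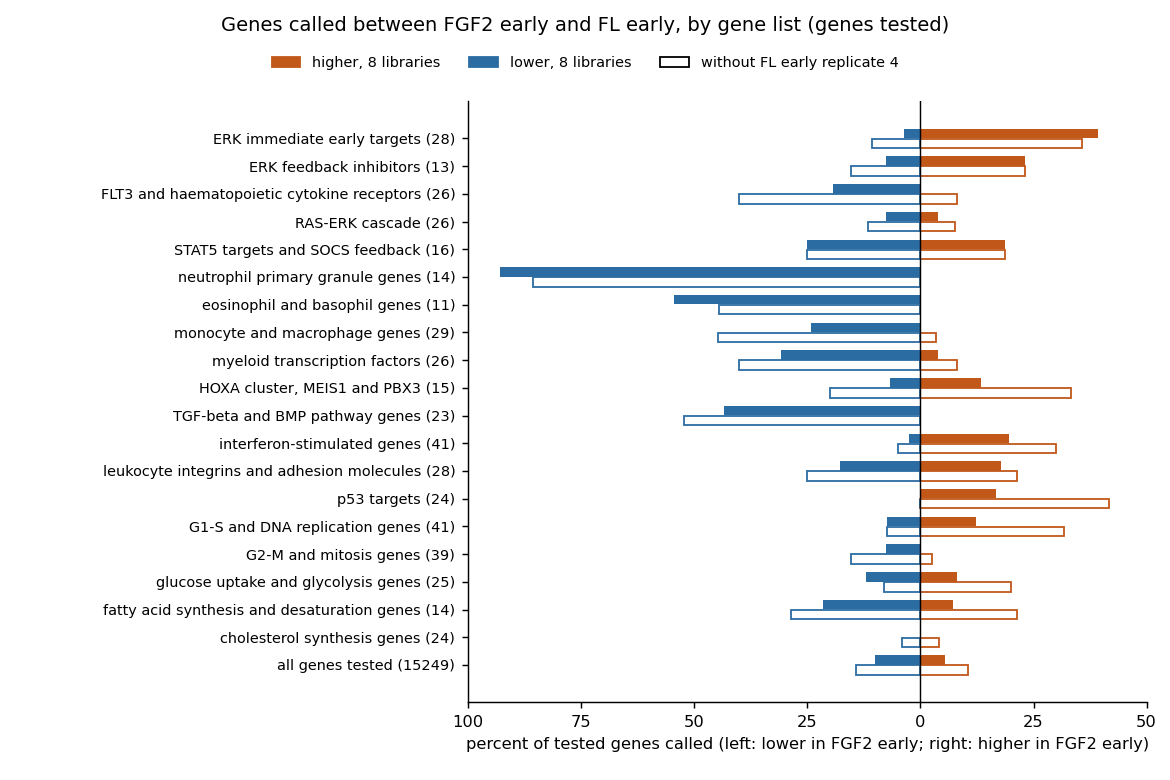
Percent of tested genes called lower (left) and higher (right) in FGF2 early for 19 gene lists and for all genes, with the number tested in brackets. Filled bars use all 8 early libraries and open bars leave out FL early replicate 4. Primary granule genes reach 13 of 14 lower and ERK immediate early targets 11 of 28 higher, against 10.0% and 5.41% of all genes.

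The parental level, from cells with no drug, was set beside the lines. Of the 711 genes at least 2-fold lower in FGF2 early, the parental mean lay between the lines in 48.9%, at or above both in 41.1% and at or below both in 9.99%. Of the 78 genes at least 2-fold higher, it lay between in 46.2%, at or above both in 25.6% and at or below both in 28.2%. Among the 11 higher ERK immediate early genes, all FL early libraries lay below the parental range in 6, and all FGF2 early libraries above it in 3 and below it in 3. The matching share over all called genes was not counted, so whether this is particular to the list was not tested.

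The 2 ligands were also added to parental cells for the same 48 hours in gilteritinib, with 1 library each, so these values have no replicate check and no test. Between those libraries, 2.44% of all genes were at least 2-fold higher with FGF2 and 2.40% at least 2-fold lower. Among the genes higher in FGF2 early the shares were 2.55% and 0.970%, and among the genes lower in FGF2 early 2.88% and 1.64%. EGR1 was at 48.1, 14.3 and 13.1 CPM in the library with the drug alone, the one with FGF2 and the one with FL. DUSP6 was at 31.5, 84.6 and 57.3 CPM in the same order, MPO at 4.73, 5.0 and 5.24 CPM, CD93 at 89.5, 88.9 and 94.4 CPM and AZU1 at 435, 458 and 547 CPM. For EGR1, MPO and CD93 the library with FGF2 and the one with FL were close to each other.

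Called genes were spread over the chromosomes, with 6.21% to 15.7% of the tested genes of each autosome and of the X chromosome lower in FGF2 early. The exception was chromosome Y, on which 11 of 14 tested genes (78.6%) were lower and none higher. Levels of single genes of that chromosome are not given here.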

How the data were processed

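RNA-seq libraries were made from poly(A) RNA with a stranded kit, per the labels' protocols. The submitters' processing notes name kallisto and GRCh37. The deposited values are the authors' estimated counts for 39293 gene identifiers, of which 73.68% had a symbol, and only 0.054% of values above 0 were whole within 1e-06. How transcripts were summed to genes is not given in the sources used here.

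The estimated counts were rounded and scaled with TMM factors over 14 libraries. The filter for low genes was filterByExpr of edgeR, set to a minimum count of 10 and a minimum total of 15. The FGF2 early, FL early and parental groups (4, 4 and 3 libraries) were fitted together with robust quasi-likelihood tests in edgeR 4.0.16 under R 4.3.3, and the contrast was FGF2 early minus FL early. P-values were adjusted by Benjamini-Hochberg over 15249 genes, with a threshold of 0.05. CPM used TMM library sizes, and the acute log2 differences a prior count of 2. Alternatives used limma 3.58.1 (voom) and DESeq2 1.42.0, other scalings, other filters, other sets of libraries and libraries left out. The fit was tested on simulated counts. Figures were drawn with Python 3.11.15 and matplotlib 3.10.9. Chi-square comparisons of replicates found no library deposited as a duplicate.

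Genes were named by 3 rules: a panel of genes; the 15 largest changes in each direction that separate the groups fully and average 3 or more in log2 CPM; and up to 6 members with the smallest adjusted p of each described list. From these the text describes a selection, and genes outside them are marked. The comparison, the panel and the 39 gene lists were chosen with earlier results of these data known. Promoters are from RefSeq, on GRCh38.p14, and no coordinates were converted between builds. One item selected by these rules is not reported here.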

Additional observations from a re-analysis of the deposited data

Results flagged for a closer look

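Of 228 groups of 4 libraries, 2 for each gene named in the text, 27 had a highest or lowest library whose gap to the nearest other library as a share of the range of the group exceeded Dixon's critical value. Chance flags about 1 in 20 groups. FGF2 early replicate 1 stood apart for CNKSR2 (18.6 CPM), CIITA (17.3 CPM), CCR2 (11.8 CPM), CD9 (0.753 CPM), PMAIP1 (16.6 CPM), CDKN2D (8.52 CPM) and RRAS2 (0.0290 CPM). FGF2 early replicate 2 stood apart for RNASE3 (31.3 CPM), CEBPE (4.81 CPM), FCGR1A (26.3 CPM) and HRK (0.202 CPM). FL early replicate 1 stood apart for GAS6 (158 CPM), BMF (39.8 CPM) and CDKN1A (150.0 CPM). FL early replicate 2 stood apart for TGFB2 (4.78 CPM), CD74 (109 CPM) and PMAIP1 (12.6 CPM). FL early replicate 3 stood apart for CCNE1 (16.6 CPM). FL early replicate 4 stood apart for ANKRD52 (25 CPM), ZMYND11 (7.70 CPM), CA2 (35.9 CPM), ATP9A (28.7 CPM), PLEKHA5 (15.2 CPM), MEIS1 (47.3 CPM), MEIS2 (64.8 CPM), BMPR1A (9.37 CPM) and ITGA4 (158 CPM). For RRAS2 the other 3 libraries of the group were at 0. No explanation of these values was tested.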

How the results depend on the processing

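No named call changed direction under the 22 alternatives. Of 97 named genes called, 51 kept the call under every alternative that gave a value and 46 lost it under at least 1. Leaving out FL early replicates 2 and 3 together ended 40 of these calls, limma-voom 13, the fit of the 8 early libraries 11 and no low-count filter 10. Fits without 1 library ended 2 (FL early replicate 4) to 15 (FL early replicate 2) of them, and 14 each without FGF2 early replicate 3 or 4. DESeq2 ended none and added 4 (FLT3, SPRY4, CD74 and CXCR4). Leaving out 1 library gave 399 to 1587 genes higher, 967 to 2170 lower, 50 to 203 at least 2-fold higher and 526 to 913 at least 2-fold lower. Without FL early replicates 1 and 4 together, 1884 were higher, 2619 lower and 292 at least 2-fold higher, and without FL early replicates 2 and 3 together, 252, 599 and 40, with 346 at least 2-fold lower. With only the 8 early libraries in the fit, 490 were higher, 980 lower and 49 at least 2-fold higher. Total-count scaling gave 1368 higher. At least 2-fold higher were 126 genes with limma-voom and 49 with a minimum count of 50. Some of these fits hold fewer libraries or genes, and the cause of the changed counts was not tested.

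Between the acute libraries, a 1.5-fold threshold gave 5.58% of all genes higher and 5.67% lower, 4.97% and 1.94% of genes higher in FGF2 early, and 5.82% and 5.23% of genes lower in it. A prior count of 0.5 gave 2.87% and 2.81% of all genes. For genes at least 2-fold lower, the parental mean was above both lines in 46.4% and between them in 44.0% with a minimum count of 50. These shares were 28.8% and 58.9% without FL early replicates 1 and 4, 50.6% and 39.0% without replicates 2 and 3, and 30.9% to 46.6% and 44.2% to 58.1% on leaving out 1 library. For genes at least 2-fold higher, the parental mean was above both in 14.3% with limma-voom, and above in 12.2% and between in 61.2% with the 8 early libraries. Without FL early replicates 1 and 4 it was between in 64.7% and below both in 18.5%. Leaving out 1 library gave 15.8% to 26.5% above and 50% to 62.6% between.

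Replicate numbers are shared by the lines, but deviations of same-numbered libraries correlated at only 0.0909, -0.0397, -0.0518 and 0.000788, so the numbers were not taken as pairs. With the replicate number as a block, 677 genes were higher and 1273 lower, and 8 of the named calls were lost and none gained (CDK1, CTSG, ELANE, FADS1, HK1, JUNB, NR4A2 and PLAUR). Totals of 27295941 to 33075041 counts limit the lowest genes, such as RRAS2 and GATA1.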
